A study of Drosophila melanogaster with 2 samples.

Results

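Transfer RNA genes of Drosophila melanogaster were examined for binding of CG18011, the product of a zinc finger gene, in whole embryos. All genes of biotype tRNA on the main nuclear arms 2L, 2R, 3L, 3R, 4 and X in the Ensembl annotation of dm6 were taken, which gave 290 of 18164 genes, none of them on arm 4. The embryos came from a transgenic line that stably expresses CG18011 with GFP fused to its C terminus, were 0 to 24 h old and of both sexes, and all tissues and stages were pooled. Chromatin was sonicated to 200 to 800 bp and the fusion protein was recovered with an antibody against GFP. The 2 biological replicates, with 1 library each, carry the same tag and form 1 group, and no control library was analysed here. The authors' deposited peaks give a position, a summit and a signal in the unit of their peak caller. The strict list had been thresholded on the irreproducible discovery rate (IDR), a measure of how well the ranks of peaks repeat between replicates, and holds 3290 peaks. It is labelled as the optimal list, and a peak in it need not lie in the lists of both libraries. The pooled list had been made from both libraries before that threshold and holds 29999 peaks on these arms, most of them weak. A tRNA gene was counted as having a summit when one lay within 500 bp of its annotated start, and the strongest was kept.

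Transfer RNA genes are transcribed by RNA polymerase III, which also makes the 5S ribosomal RNA and other short RNAs. Their promoter lies within the gene, as the A box and the B box, which encode the D arm and the T arm of the tRNA. TFIIIC binds both boxes and places TFIIIB just upstream of the start, and TFIIIB recruits the polymerase. In flies tRNA genes occur in many copies, often in clusters and within introns of other genes. Because the genes are short, a sonicated fragment that reaches a tRNA gene also reaches its flanks, and a summit near one may lie at the start of a neighbouring protein-coding gene.

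The sequences of 4 tRNA genes with an IDR summit, read from the RefSeq genome of the dm6 build, show where the summit lay against the gene. Each runs 5′ to 3′ on the strand of the tRNA, with the bases of the tRNA gene in capitals and the flank in lower case. The first 3 begin at the summit upstream of the gene, and the fourth begins at the gene and ends at the summit downstream. The sequence of tRNA:Ala-AGC-2-1 covers 3L:8028546-8028831 on the minus strand and is shown because this gene had the strongest IDR signal of all tRNA genes and no coding start near it. Its B box, GATCGATGC, starts at base 266. The sequence of tRNA:Tyr-GTA-1-8 covers 3R:8669097-8669396 on the minus strand and is shown for the second strongest summit, and its first 78 of 94 gene bases are within the stretch. The sequence of tRNA:Leu-TAA-2-1 covers 3R:24112752-24113047 on the plus strand and is shown because its summit lay at nearly the same distance upstream. The sequence of tRNA:Phe-GAA-1-2 covers X:6744277-6744543 on the minus strand and is shown because its summit lay beyond the gene, at the start of RpL17, a gene for a ribosomal protein.
tRNA:Ala-AGC-2-1: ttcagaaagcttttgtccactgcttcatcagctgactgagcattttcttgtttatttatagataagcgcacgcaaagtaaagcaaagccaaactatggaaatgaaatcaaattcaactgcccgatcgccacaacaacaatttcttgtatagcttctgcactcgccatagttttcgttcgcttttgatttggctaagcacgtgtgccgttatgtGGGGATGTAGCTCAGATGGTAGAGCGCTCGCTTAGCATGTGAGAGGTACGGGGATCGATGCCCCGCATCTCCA
tRNA:Tyr-GTA-1-8: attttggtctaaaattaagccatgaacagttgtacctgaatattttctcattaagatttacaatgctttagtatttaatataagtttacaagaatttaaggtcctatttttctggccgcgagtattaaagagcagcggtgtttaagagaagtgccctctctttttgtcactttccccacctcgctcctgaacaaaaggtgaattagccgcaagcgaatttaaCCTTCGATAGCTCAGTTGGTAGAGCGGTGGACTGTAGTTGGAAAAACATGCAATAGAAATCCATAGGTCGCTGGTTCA
tRNA:Leu-TAA-2-1: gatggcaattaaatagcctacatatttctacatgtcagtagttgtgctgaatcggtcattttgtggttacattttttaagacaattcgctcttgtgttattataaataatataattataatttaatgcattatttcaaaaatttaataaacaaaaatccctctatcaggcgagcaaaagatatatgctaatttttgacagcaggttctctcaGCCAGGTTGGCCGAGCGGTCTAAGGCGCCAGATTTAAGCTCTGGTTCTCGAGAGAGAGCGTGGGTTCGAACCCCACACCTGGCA
tRNA:Phe-GAA-1-2: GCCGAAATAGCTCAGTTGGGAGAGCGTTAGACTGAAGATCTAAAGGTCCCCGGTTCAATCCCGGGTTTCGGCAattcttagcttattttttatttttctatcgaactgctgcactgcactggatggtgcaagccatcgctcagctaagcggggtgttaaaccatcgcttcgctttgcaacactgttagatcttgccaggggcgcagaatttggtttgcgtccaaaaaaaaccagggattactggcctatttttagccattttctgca

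The letters searched for the B box of the internal promoter were found in nearly every tRNA gene, and those for the A box in fewer. The letters GNTCNANNC of the B box were found on the gene strand of 289 of 290 tRNA genes (99.7%), and the gene without them was tRNA:Thr-AGT-2-1, chosen for naming after its value was seen. Within the first 73 bases, the median length of a tRNA gene, 272 genes (93.8%) held them, against 4.58% of 19253 protein-coding starts and 3.93% of 3789 other noncoding starts. The letters TNGCNNA of the A box were found at their usual place near the start of 185 tRNA genes (63.8%), against 3.91% of protein-coding and 3.38% of other noncoding starts. Only this strict string was searched, and whole isotypes lacked it, among them glycine, aspartate, glutamate and valine. A gene without these letters is therefore not shown to lack an A box. All 14 tRNA genes with an IDR summit held the B box. In the Ala and Leu sequences above, the B box lay near the end of the gene and the summit lay more than 200 bp away from it.

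Few tRNA genes carried an IDR summit, and many carried a weak one in the pooled list. An IDR summit lay at 14 of 290 tRNA genes (4.83%, 95% exact interval 2.66 to 7.97), close to the 4.86% of 3661 other noncoding genes and below the 14.8% of all genes and the 17.9% of protein-coding genes. A pooled summit lay at 151 tRNA genes (52.1%, 46.2 to 57.9). That share was near the 53.6% of protein-coding genes and the 47.9% of all genes, and above the 28.2% of other noncoding genes (26.7 to 29.7). Bases within 500 bp of a pooled summit made up 18.1% of the arms, and those within 500 bp of an IDR summit 2.35%. Of the tRNA genes with a pooled summit, 9.27% (5.16 to 15.1) also had an IDR summit, against 17.3% of other noncoding genes and 31.0% of all genes. At tRNA genes every IDR summit had the same rank in both lists, and every other pooled summit was weaker than the weakest IDR peak. For tRNA genes this share therefore separates summits by signal and does not measure how well they repeat. Intervals cover counting error only, and neighbouring genes share summits, so that they are too narrow.

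The libraries differed at tRNA genes. In the list of replicate 1 a summit lay at 85 tRNA genes (29.3%, 24.1 to 34.9), and in the list of replicate 2 at 153 (52.8%, 46.8 to 58.6). Other noncoding genes had 26.6% in replicate 1 and 27.9% in replicate 2. All genes had 43.3% and 48.0%, above the interval of tRNA genes in replicate 1 and within it in replicate 2. The share of tRNA genes was thus well above that of other noncoding genes in replicate 2, while in replicate 1 the shares differed by less than their intervals. The ratio of the counts of replicate 2 to replicate 1 was 1.80 for tRNA genes, 1.05 for other noncoding genes, 1.11 for protein-coding genes and 2.91 for snoRNA genes. Of the 151 tRNA genes with a pooled summit, 142 were in the list of replicate 2, 66 in that of replicate 1, 60 in both and 3 in neither. For 113 of the 290 tRNA genes neither list held a summit. The part of the difference between the libraries in the pooled share was not tested.

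**Figure D1:**
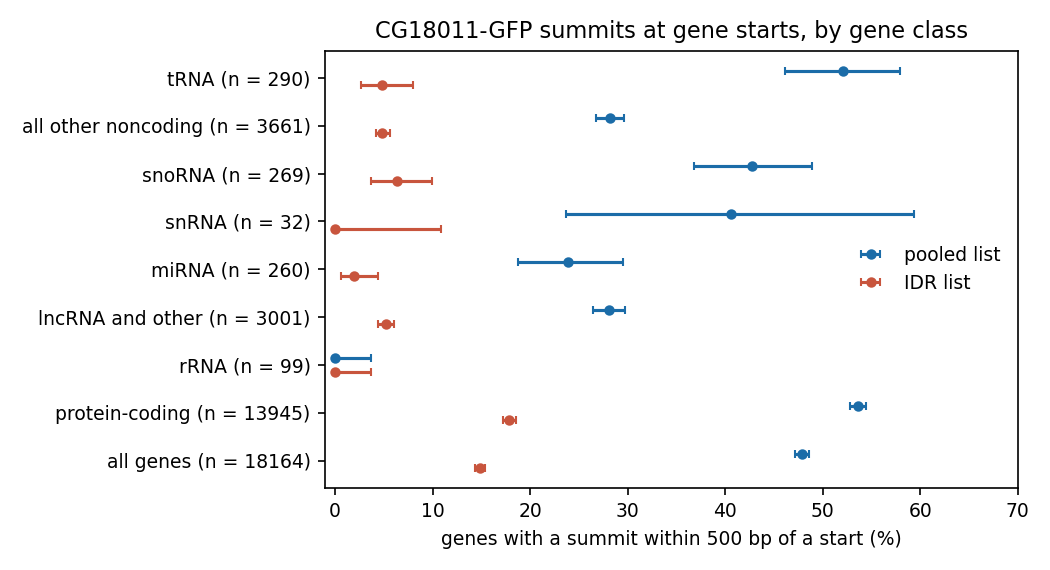
Share of genes with a summit within 500 bp of a start, in percent, for each gene class, in the pooled list and in the IDR list, with points for the shares and bars for 95% exact intervals. tRNA genes lay at 52.1% in the pooled list, above all other noncoding genes at 28.2%, and at 4.83% against 4.86% in the IDR list.

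Among the other short noncoding RNAs, snoRNA genes, whose products guide the modification of ribosomal RNA, were closest to tRNA genes. A pooled summit lay at 115 of 269 snoRNA genes (42.8%) and an IDR summit at 17 (6.32%). The small nuclear RNAs of the spliceosome had a pooled summit at 13 of 32 genes (40.6%) and no IDR summit, which allows a share of up to 9.38%. MicroRNA genes had 62 of 260 (23.9%) in the pooled list and 5 (1.92%) in the IDR list, and the remaining noncoding genes, mostly long noncoding RNAs, had 28.1% and 5.20% of 3001. None of 99 ribosomal RNA genes had a pooled summit, which allows a share of up to 3.03%. That limit takes the genes as independent, and no source used here states how reads with several placements were treated. The lack of a summit there is thus not shown to be a lack of binding. When starts under 1000 bp apart were joined into loci, 94 of 175 tRNA loci (53.7%) and 53.9% of 117 snoRNA loci had a pooled summit, against 30.7% of 2650 other noncoding loci, which include those of snoRNAs. In the list of replicate 1 these shares were 35.4% for tRNA, 24.8% for snoRNA and 30.5% for other noncoding loci, and in that of replicate 2 they were 52.6%, 59.0% and 30.3%. The excess of tRNA over snoRNA genes in the pooled list was therefore not seen over loci.

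Summits were more frequent at tRNA genes near a protein-coding start, yet the pooled share stayed high far from one. Within 500 bp of a coding start, 21 of 32 tRNA genes (65.6%) had a pooled summit and 6 (18.8%) an IDR summit, against 52.7% and 12.8% of 588 other noncoding genes. From 500 to 2000 bp away, 50 of 91 tRNA genes (54.9%) had a pooled summit, against 33.5% of other noncoding genes. From 2000 to 10000 bp away, 57 of 108 tRNA genes (52.8%) had one, against 20.8%. Over 10000 bp away, 23 of 59 tRNA genes (39.0%, 26.6 to 52.6) had one, against 13.1% (10.7 to 16.0). The pooled shares of the classes were thus separated by more than their intervals in the 3 strata over 500 bp, and not within 500 bp. In the IDR list the same strata gave 4 (4.40%), 3 (2.78%) and 1 (1.69%) of the tRNA genes, against 5.14%, 2.85% and 1.53% of other noncoding genes, and these differed by less than their intervals.

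Over 2000 bp from every coding start, the pooled share was 47.9% of 167 tRNA genes, against 18.3% of 2022 other noncoding genes and 24.2% of 91 snoRNA genes. In replicate 1 the shares there were 29.9% of tRNA genes (23.1 to 37.5) and 22.3% of other noncoding genes (20.5 to 24.1), and in replicate 2 they were 48.5% and 17.4%. Taken by loci, 52.4% of 103 tRNA loci in this range had a pooled summit, against 20.8% of 1434 other noncoding loci and 38.1% of 42 snoRNA loci. Replicate 1 gave 35.9% of these tRNA loci and 25.4% of the other noncoding loci, and replicate 2 gave 50.5% and 19.8%. Both libraries therefore placed tRNA genes above other noncoding genes far from coding starts, in replicate 1 by a smaller margin and with overlapping intervals for the genes. From 500 to 2000 bp away the order in replicate 1 was the other way, with 20.9% of tRNA genes and 25.0% of other noncoding genes.

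**Figure D2:**
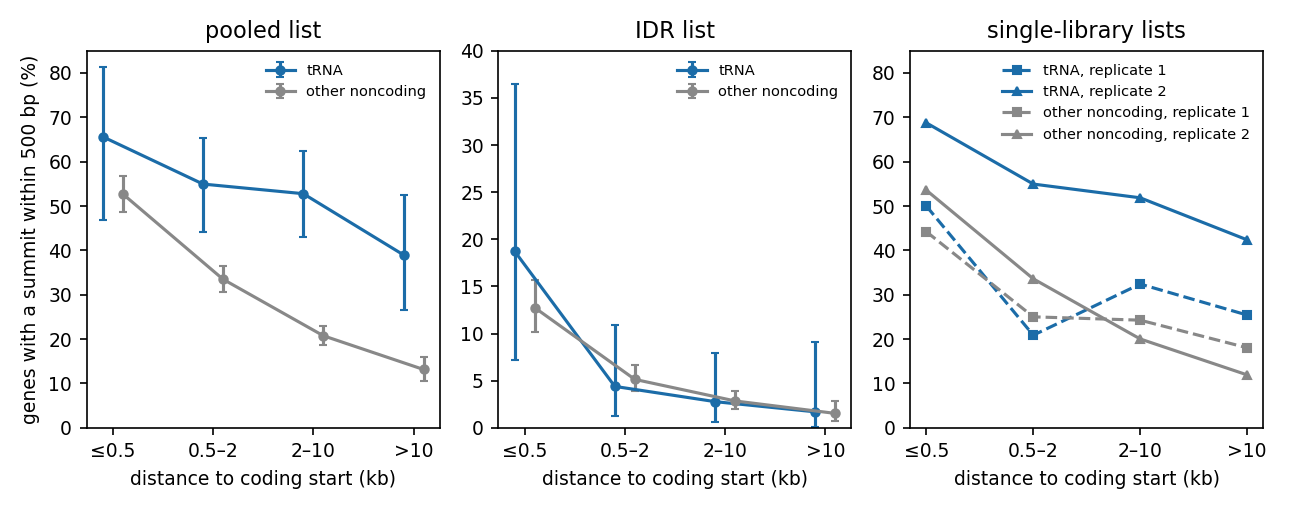
Share of tRNA genes and of other noncoding genes with a summit within 500 bp, in percent, by distance of the gene's start from the nearest protein-coding start in kb, in the pooled list, the IDR list and the lists of the single libraries, with bars for 95% exact intervals in the first 2 panels. In the pooled list tRNA genes fell from 65.6% to 39.0% and other noncoding genes from 52.7% to 13.1%, while the IDR shares of both fell together, to 1.69% and 1.53%.

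The 14 tRNA genes with an IDR summit shared 10 summits, whose signals ran from 185.0 to 1033, and 7 of the 10 lay above the median of the IDR list, 279.9. To set the libraries side by side, the signal of each library's peak over the summit was divided by the median of that library across IDR peaks, 64.6 in replicate 1 and 222.8 in replicate 2, and is called the relative signal. The strongest summit of the set lay upstream of tRNA:Ala-AGC-2-1, an alanine tRNA gene at 3L:8028546-8028618 on the minus strand, in an intron of nmo, the gene of the kinase Nemo. Its signal of 1033 ranked 268 in the IDR list. The signals of the libraries there were 153.9 in replicate 1 and 867.7 in replicate 2, which gave relative signals of 2.38 and 3.89 (mean 3.14 ± 1.07, SD, n = 2). Both were above the median IDR peak. The summit lay 213 bp upstream of the tRNA start and 27544 bp from the nearest coding start, that of bip1, which made it the IDR summit at a tRNA gene that was farthest from a coding start. The gene sequence occurs in 11 identical copies, and of the 12 genes with the AGC anticodon 7 had a pooled summit and this 1 an IDR summit.

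A summit of 852.1, ranked 329, lay 222 bp upstream of tRNA:Tyr-GTA-1-8, a tyrosine tRNA gene with an intron at 3R:8669081-8669174 on the minus strand. Relative signals there were 2.76 in replicate 1 and 3.06 in replicate 2 (mean 2.91 ± 0.211, SD, n = 2). The start of CG8036 lay 222 bp from the same summit, so that the tRNA and the coding start were equally near. The other 2 tyrosine tRNA genes of the cluster, tRNA:Tyr-GTA-1-6 and tRNA:Tyr-GTA-1-7, shared a pooled summit of 91.4 and had no IDR summit. At tRNA:Leu-TAA-2-1, at 3R:24112964-24113047 on the plus strand, the summit of 300.7 lay 212 bp upstream of the tRNA start and 363 bp from the start of CG13605. Its relative signals were 1.08 and 1.00 (mean 1.04 ± 0.0529, SD, n = 2), close to the median IDR peak in both libraries. Along with the alanine gene, these were the 3 summits that served 1 tRNA gene and had no other start nearer than that of the tRNA.

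At 4 of the other summits the start of a coding gene was nearer than the start of the tRNA gene. The summit of 503.0 at tRNA:Phe-GAA-1-2, X:6744471-6744543 on the minus strand, lay 266 bp downstream of the tRNA start and 39 bp from the start of RpL17, with relative signals of 1.94 and 1.75 (mean 1.85 ± 0.137, SD, n = 2). The summit of 491.2 at tRNA:His-GTG-1-3, 2R:12334995-12335066 on the minus strand, lay 198 bp upstream of the tRNA and 52 bp from the start of CG8490, with relative signals of 1.41 and 1.84 (mean 1.62 ± 0.308, SD, n = 2). This histidine tRNA gene is 1 of 3 identical neighbours, and the other 2, tRNA:His-GTG-1-1 and tRNA:His-GTG-1-2, had no pooled summit. The summit of 457.6 at tRNA:Val-CAC-2-5, 3R:19672277-19672349 on the minus strand, lay 466 bp downstream of the tRNA start and 433 bp from a start of Naam, the nicotinamidase gene that contains the tRNA, with relative signals of 1.49 and 1.58 (mean 1.54 ± 0.0658, SD, n = 2). The summit of 319.2 shared by tRNA:Gly-GCC-1-9 and tRNA:Trp-CCA-2-2, at 2R:18639726-18639796 on the minus and 2R:18639557-18639628 on the plus strand, lay 26 bp from the start of CG30122. It was 500 bp downstream of the glycine start, the edge of the window, and 261 bp upstream of the tryptophan start, with relative signals of 0.863 and 1.18 (mean 1.02 ± 0.224, SD, n = 2). In all, 6 of the 10 IDR summits, which serve 7 of the 14 genes, lay within 500 bp of a coding start.

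The 3 remaining IDR summits lay between tRNA genes transcribed away from each other, more than 500 bp from any coding start. The arginine tRNA genes tRNA:Arg-CCT-1-2, 2R:20000296-20000368 on the minus strand, and tRNA:Arg-CCT-1-3, 2R:20000819-20000891 on the plus strand, shared a summit of 264.9 that lay 206 bp upstream of the first and 245 bp upstream of the second. Its relative signals were 0.586 and 1.02 (mean 0.804 ± 0.309, SD, n = 2), and the nearest coding start, of CG16898, was 4429 bp away. The serine tRNA genes tRNA:Ser-TGA-1-1, 2R:23072019-23072100 on the minus strand, and tRNA:Ser-TGA-2-1, 2R:23072581-23072662 on the plus strand, shared a summit of 185.0, 336 bp upstream of the first and 145 bp upstream of the second. Its relative signals were 0.529 and 0.740 (mean 0.635 ± 0.149, SD, n = 2), below the median IDR peak in both libraries, and the start of l(2)k09913 was 2051 bp away. These are the only 2 genes with the TGA anticodon. Between tRNA:Arg-TCT-1-1, 2R:11652367-11652439 on the minus strand, and tRNA:Met-CAT-1-1, 2R:11652649-11652721 on the plus strand, a summit of 208.1 lay 28 bp and 182 bp upstream of the starts and 610 bp from the start of CG34228. Replicate 2 had a peak of 201.0 over it, a relative signal of 0.902, and replicate 1 had no peak there, so that no mean is given. The pairs were thus among the weaker summits of the set, and 1 of the 3 rested on a peak in a single library.

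**Figure D3:**
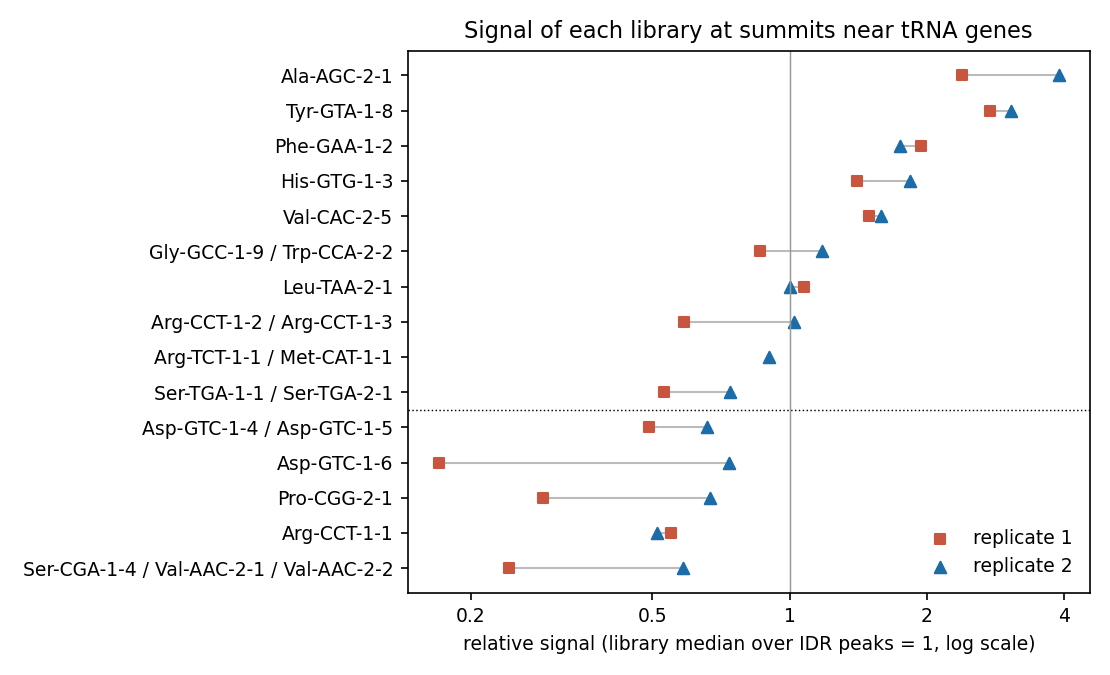
Relative signal of replicate 1 (squares) and replicate 2 (triangles) at the 10 IDR summits near tRNA genes and, under the dotted line, at the strongest pooled summits outside the IDR list, on a log axis on which 1 is the median that the same library had over IDR peaks. The summits at the alanine gene (2.38 and 3.89) and the tyrosine gene (2.76 and 3.06) stood highest, and no replicate 1 peak covered the summit of Arg-TCT-1-1 and Met-CAT-1-1.

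Just under the IDR threshold, whose lowest peak had a signal of 178.9, stood a few tRNA genes with pooled summits alone. A summit of 175.1 was shared by the aspartate tRNA genes tRNA:Asp-GTC-1-4 and tRNA:Asp-GTC-1-5 and lay 78 bp from the start of Sema1a, a semaphorin gene for axon guidance, with relative signals of 0.493 and 0.659. Another copy, tRNA:Asp-GTC-1-6, within Sema1a, had a summit of 174.1 that lay 222 bp upstream of the tRNA and 52892 bp from the nearest coding start, with relative signals of 0.170 in replicate 1 and 0.735 in replicate 2. The summit of 172.1 at tRNA:Pro-CGG-2-1 lay 168 bp from a start of Bx, with 0.287 and 0.670. The arginine gene tRNA:Arg-CCT-1-1 had a summit of 142.9 with 0.551 and 0.512, and so all 3 genes with the CCT anticodon had a pooled summit. A summit of the same signal within hts, the adducin gene, was shared by tRNA:Ser-CGA-1-4, tRNA:Val-AAC-2-1 and tRNA:Val-AAC-2-2, with 0.242 and 0.582. Apart from the summit at tRNA:Arg-CCT-1-1, the relative signal was lower in replicate 1 than in replicate 2.

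Over all 151 tRNA genes the strongest pooled summit had a median signal of 76.6 (quartiles 56.5 and 108.3, range 39.6 to 1033), which was 1.17 times the median of the pooled list, 65.2. The median was 107.6 for the 21 tRNA genes within 500 bp of a coding start and 76.0 for the 130 farther away. Other noncoding genes had a median of 78.7, snoRNA genes 63.1 and protein-coding genes 125.6, so that tRNA genes had pooled summits often but with signals near those of other noncoding genes. The 151 genes used 113 distinct summits, of which 33 were shared by 71 tRNA genes. Both libraries had a peak over 42 of the 113 summits, replicate 1 had none over 67, and replicate 2 had none over 8. At the 42 shared summits Pearson's correlation of the log10 signals was 0.857 and Spearman's was 0.702, given as a description, since the summits share the same libraries and were chosen by their pooled signal.

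Over all tRNA genes, the strongest pooled summit lay more often upstream of the start than downstream. Of the 151 genes, 93 (61.6%) had it upstream, with a median offset of -119 bp, where a negative value is upstream. It lay 100 to 300 bp upstream for 55 genes (36.4%) and at the same distance downstream for 22 (14.6%), and within 100 bp of the start for 34. These are counts of genes, and a summit shared by neighbours counts once for each of them. For 15 genes the summit lay inside the tRNA gene, and for 81 the peak overlapped it. Of the 80 tRNA genes over 2000 bp from a coding start, 51 (63.8%) had it upstream, with 29 against 10 in the same ranges. Of all 44 tRNA genes alone in their locus, 23 (52.3%) had it upstream, with a median of -14.5 bp and 15 against 7 in these ranges, and of the 26 of them over 2000 bp from a coding start 15 did, with 10 against 2. Of the 21 tRNA genes within 500 bp of a coding start, 10 (47.6%) had it upstream, with a median of 41 bp downstream and 6 against 5. The upstream share was thus lower among single genes and among those near a coding start. The upstream share was 56.0% of 904 noncoding RNA genes, microRNAs included, 60.0% of snoRNA genes and 71.2% of protein-coding genes, where the summits lay closer to the start.

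An upstream median was seen in replicate 2 and not in replicate 1. In the list of replicate 2, 96 of 153 tRNA genes (62.7%) had their summit upstream, with a median of -101 bp. In that of replicate 1, 42 of 85 (49.4%) did, with a median of 16 bp, which is downstream. In the range of 100 to 300 bp, replicate 1 had 21 genes upstream and 12 downstream, and replicate 2 had 51 and 23. Of the 14 tRNA genes with an IDR summit, 11 had it upstream and 3 downstream. For 137 of the 151 tRNA genes with a pooled summit, and 9 of the 14 with an IDR summit, the nearest start of any gene was that of a tRNA.

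**Figure D4:**
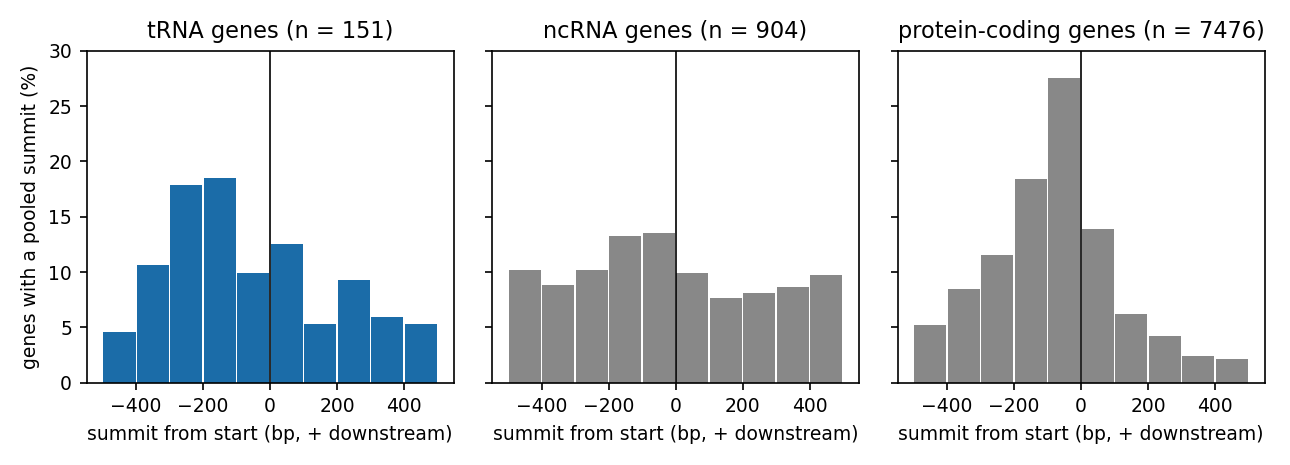
Distance of the strongest pooled summit from the start in bp (negative upstream, positive downstream) in steps of 100 bp, as a percent of the genes with such a summit, for tRNA, noncoding RNA and protein-coding genes. At tRNA genes the fullest steps were 100 to 300 bp upstream (18.5% and 17.9%), while at protein-coding genes the step just upstream of the start was fullest (27.5%).

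tRNA genes lie in clusters, and clustered genes had a pooled summit more often than single ones. Genes under 1000 bp apart were joined, which gave 174 loci, of which 105 held 1 gene, 43 held 2 and 26 held 3 or more. The 69 loci of several genes held 185 tRNA genes, and 21 of them mixed isotypes. A pooled summit lay at 44 of 105 single genes (41.9%), 48 of 86 genes in pairs (55.8%) and 59 of 99 genes in larger loci (59.6%). A longer locus offers more windows that can share a summit, and per locus 94 of 174 (54.0%, 46.3 to 61.6) had a pooled and 10 (5.75%, 2.79 to 10.3) an IDR summit. In the list of replicate 1 the counts were 35 single genes, 27 in pairs and 23 in larger loci, and in that of replicate 2 they were 41, 47 and 65. The rise with cluster size was therefore found in replicate 2, and replicate 1 had its lowest share in the larger loci.

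The 2 largest loci, with 7 genes each, stood at opposite ends. At 2R:13430282-13432794, in ATP8A, a gene for a phospholipid flippase, 5 isoleucine and 2 leucine tRNA genes lie together, and 6 of the 7 had a pooled summit, on 3 distinct summits of at most 137.2. At X:14014814-14017284, arginine and serine tRNA genes lie together outside coding genes, and 1 of the 7, tRNA:Arg-TCG-2-1, had a pooled summit, of 109.1. Neither locus had an IDR summit. Genes with a tRNA neighbour on the other strand that is transcribed away from them, a grouping made after the bound pairs had been seen, numbered 59 in 25 loci. Of these, 39 (66.1%) had a pooled and 6 (10.2%) an IDR summit, against 112 (48.5%) and 8 (3.46%) of the other 231, and the 6 IDR genes are the pairs that prompted the grouping. The list of replicate 1 held 14 of the 59 and 71 of the 231, a lower share of the divergent genes, and that of replicate 2 held 42 and 111, a higher one.

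tRNA genes within protein-coding genes and outside them had pooled summits at similar rates. Of 134 tRNA genes inside a coding gene, 73 (54.5%) had a pooled and 3 (2.24%) an IDR summit, and of 156 outside, 78 (50.0%) and 11 (7.05%) did. Only 7 of the 290 overlapped a coding gene's exon. Reads from identical copies cannot always be placed, and 238 of the 290 genes had at least 1 identical copy, among 95 distinct gene sequences with up to 13 genes each. The pooled share was 50.0% of the 52 genes with a sequence of their own, 48.5% of 103 genes in families of 2 to 5, and 55.6% of 135 genes in families of 6 or more. The IDR counts were 5, 4 and 5 in that order, or 9.62%, 3.88% and 3.70% of these genes. The part of read placement in these shares was not tested.

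The isotypes, the amino acids that the tRNAs carry, differed in their pooled counts more than in their IDR counts. Of 22 isotypes, 21 had a gene with a pooled summit and 11 a gene with an IDR summit. The highest pooled shares were those of the initiator methionine genes, with 5 of 6, isoleucine, with 9 of 11, and leucine, with 17 of 22. The lowest were those of the single selenocysteine gene, with none, asparagine, with 3 of 10, and serine, with 6 of 20. Initiator methionine, isoleucine and leucine also had the highest shares in the list of replicate 2, and did not in that of replicate 1. Selenocysteine and asparagine were again lowest in replicate 2, and serine was not. Leucine genes numbered 4 in the list of replicate 1 and 18 in that of replicate 2, isoleucine genes 2 and 9, and initiator genes 1 and 4. Serine genes numbered 8 and 12, more than in the pooled list, and threonine genes, with 11 of 17 in the pooled list, numbered 12 and 8. With several genes of an isotype in 1 locus, these counts are not independent, and no isotype was tested against another.

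Arginine had the most IDR genes, 3 of 26, followed by serine with 2 of 20. Alanine, glycine, histidine, leucine, elongator methionine, phenylalanine, tryptophan, tyrosine and valine had 1 each. The largest isotypes without an IDR summit were glutamate and lysine, with 19 genes each and 11 and 9 pooled summits, then proline and threonine, with 17 genes each and 11 pooled summits each. Aspartate had 6 of 14, glutamine 5 of 12 and cysteine 4 of 7 in the pooled list, with no IDR summit.

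**Figure D5:**
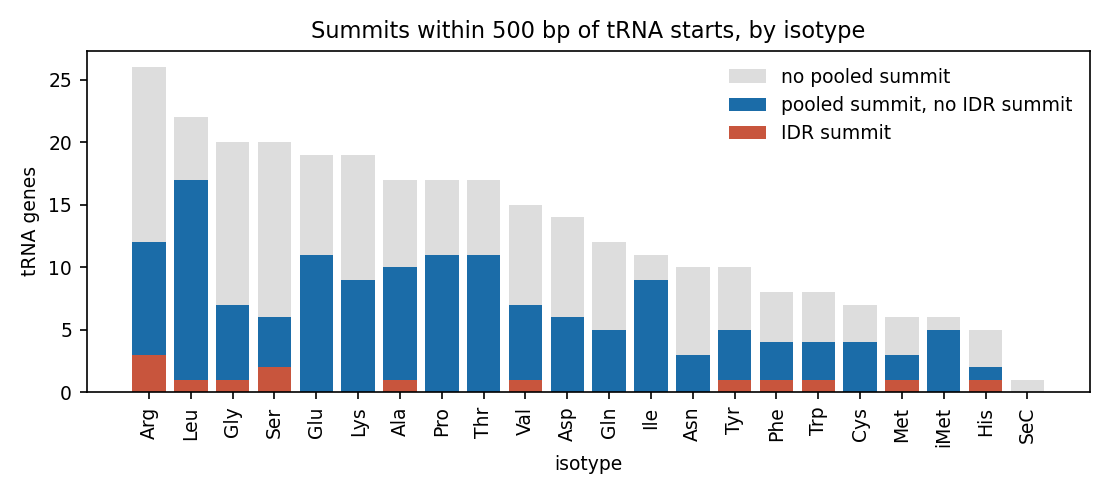
Number of tRNA genes of each isotype, split into genes with an IDR summit, genes with a pooled summit outside the IDR list and genes with no pooled summit. Leucine had a pooled summit at 17 of 22 genes and serine at 6 of 20, and IDR summits were at most 3 of an isotype.

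By arm, the share of tRNA genes with a pooled summit was highest on 2R and lowest on X, while the IDR share was highest on 2R and lowest on 2L. On 2R, 65 of 98 tRNA genes (66.3%) had a pooled summit and 9 (9.18%) an IDR summit. The pooled shares were 46.3% of 41 on 2L, 47.9% of 48 on 3L, 49.4% of 79 on 3R and 20.8% of 24 on X (7.13 to 42.2). None of the 41 on 2L had an IDR summit, which allows a share of up to 7.32%, and 1 on 3L (2.08%), 3 on 3R and 1 on X (4.17%) did. Other noncoding genes ranged only from 25.8% to 30.8% over the arms and were highest on X. In the list of replicate 1 the tRNA counts were 30 on 2R and 5 on X, and in that of replicate 2 they were 63 and 8, so that the high share on 2R was that of replicate 2, with replicate 1 at 30.6% there and at 32.9% on 3R.

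Letters of known motifs were looked for on both strands within 100 bp of each summit. The B box letters were present at 4 of the 10 IDR summits of tRNA genes and at 49 of the 103 other pooled summits (47.6%), against 16.3% of all IDR summits and 18.8% of all other pooled summits. Both sets were chosen for lying within 500 bp of a tRNA start, and 289 of 290 tRNA genes hold these letters. A window that reaches the gene can hold them through that choice, so that the higher shares are no separate result. Of the 4 IDR summits with these letters, those at tRNA:His-GTG-1-3, tRNA:Trp-CCA-2-2 and tRNA:Val-CAC-2-5 lay more than 100 bp from the tRNA gene, so that the letters found there were not those of that gene. The letters TATCGATA of the DRE, the element of many housekeeping promoters, were found at 2 of the 10, at the summits near CG8490 and CG30122, and at 1.94% of the 103, against 5.20% of all IDR and 1.94% of other pooled summits. The letters GAGAG, bound by the GAGA factor, were found at 1 of the 10, that of tRNA:Leu-TAA-2-1, and at 28.2% of the 103, against 22.3% and 23.7%. The core GTCACACT of the M1BP motif was found at none of either set, against 2.80% and 1.42%. A match is a description of letters in these windows and not of a bound site.

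Genes for the machinery that makes tRNAs had a summit within 500 bp more often than the tRNA genes themselves. Of 47 protein-coding genes of RNA polymerase III, its factors and tRNA processing, all matched by name, 13 (27.7%) had an IDR summit and 43 (91.5%) a pooled one, beside the 17.9% and 53.6% of protein-coding genes given above. No interval was computed for this chosen list, a coding gene is counted over any of its starts, and an excess over protein-coding genes was not tested. At 8 of the 13 genes with an IDR summit another coding start was nearer to the summit. Those included the polymerase subunit gene Polr3E, the TFIIIB genes Brf and Bdp1, CG7099, listed as a TFIIIC subunit, CG2100, and Rpp20 and Rpp25, named for subunits of the RNase P that trims the 5′ end of tRNAs. At Bdp1 the relative signals were 2.91 and 2.82 (mean 2.87 ± 0.0644, SD, n = 2), and at Brf they were 1.93 and 2.00 (mean 1.96 ± 0.0535, SD, n = 2). The summit near Rpp25, with 19.2 and 23.0, lay 262 bp from the start of CG17266. The own start was nearest for l(2)37Cd, for RNaseZ, which trims the 3′ end, for Archease, a cofactor of tRNA ligation, for Elp4 of the Elongator complex, which modifies tRNAs, and for RluA-1, a pseudouridine synthase gene. RluA-1 had 3.84 and 3.49 (mean 3.66 ± 0.248, SD, n = 2), and the other 4 had means from 0.655 to 0.944. The polymerase genes Polr3A and Polr3K, the repressor gene Maf1 and the splicing endonuclease gene Tsen15 had no pooled summit.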

How the data were processed

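The data are lists of peaks on dm6 from chromatin immunoprecipitation with sequencing of 2 libraries, deposited by the authors and derived, per the labels' listing of files, from alignments and a control. The deposited lists give a signal per peak in the authors' caller unit, whose scaling for depth no source used here states. They also give a −log10 q-value set by the authors, which was not used, and the authors' offset of the summit within the peak. No source used here states the peak caller, the read depth or the IDR threshold, and a signal therefore carries no counting interval. The 4 dm6 lists used were the IDR list, the pooled list and a list for each library.

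Genes came from Ensembl release 115 (gene models BDGP 6.54), and all 290 tRNA genes had the same coordinates in the RefSeq annotation. Isotypes and anticodons were read from the gene symbols. Other noncoding genes are those of any biotype other than protein-coding, tRNA or pseudogene. For each gene the strongest summit within 500 bp of any annotated start was kept. tRNA genes whose bodies lie under 1000 bp apart formed a locus. Shares have 95% exact binomial (Clopper-Pearson) intervals, and a count of 0 is given with the share that 3 counts would make. Classes were described by counts, and no test between them was made, since both libraries form 1 group and genes are not replicates. Named tRNA genes are all those with an IDR summit, the 6 with the strongest pooled summit outside it (8 with ties), the isotypes with most and fewest summits, and the bound members of the RNA polymerase III list, of which 1 is not reported here; a few others, named for their place in a cluster, were chosen after their values were seen. The members and lists were chosen with earlier results of these data known. Alternatives were other windows, the stronger part of each list, assignment to the nearest start, other locus gaps, small RNAs alone, and each replicate left out. In simulated data the strongest summit within the window was picked at 200 of 200 starts. Those starts lay far from any other, so that summits shared in clusters were not tried. The scripts ran in Python 3.11.15, with pandas 2.3.3 and numpy 2.4.6 for tables, scipy 1.17.1 for intervals, biopython 1.88 for sequences and matplotlib 3.10.9 for figures.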

Additional observations from a re-analysis of the deposited data

How the results depend on the processing

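Of 76 alternative values for 12 results, 45 stayed within 1.5 times the main count or the spread of the libraries, and 31 moved beyond it; the cause was not tested beyond what each alternative removes. With a replicate left out, the list of the other stood in for the pooled list and its 3290 strongest peaks for the IDR list. tRNA genes with an IDR summit then numbered 8 to 18 (14 in the IDR list), those with a pooled summit 85 to 153 (151), loci with an IDR summit 8 to 14 (10) and loci with a pooled summit 62 to 92 (94). In this section, far from coding starts means over 500 bp away, and near means within 500 bp. Far from coding starts, the IDR count of tRNA genes was 3 to 11 (8) and the pooled count 69 to 131 (130). The median relative to the list was 0.983 to 1.20 (1.17), and the median offset -101 to 16 bp (-119), turning downstream without replicate 2. A window of 250 bp gave 9 IDR and 97 pooled tRNA genes, 3 and 13 near coding starts, 84 pooled far from them, and 87 IDR and 633 pooled other noncoding genes. A window of 1000 bp gave 318 IDR other noncoding genes and a median signal of 1.32 times that of the list. The stronger 1645 IDR peaks left 8 tRNA genes, 2 of them far from coding starts, and 95 other noncoding genes. The stronger 15000 pooled peaks left 94 tRNA genes, 61 loci, 79 tRNA genes far from coding starts and 634 other noncoding genes. When a summit counted only for its nearest start, 6 tRNA genes, 6 loci and 114 other noncoding genes had an IDR summit. Small RNAs alone, 660 genes, gave 22 IDR and 190 pooled. Counts and not shares were compared, so that with so few genes the pooled count had to move. As shares, small RNAs had 3.33% IDR and 28.8% pooled, against 4.86% and 28.2% of all other noncoding genes. Summits over 500 bp from every coding start, an alternative chosen after seeing the data, left 7 tRNA genes, 4 loci and 93 other noncoding genes in the IDR list. The read depth behind the lists is unknown, so a gene without a summit was not detected and is not shown to be unbound. No paired analysis was possible because both libraries belong to 1 group and no comparison between groups was made.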
